A study of Mus musculus with 18 samples.

Results

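The genes examined here mark endothelial cells, the cells that line blood vessels, and the barrier that these cells form in the brain. They were the 35 genes of a list of endothelial identity and blood-brain barrier genes, 27 of them pan-endothelial and 8 of them transporters or junction proteins of the barrier. Where a gene had several probes, the one of highest mean log2 value over all 18 arrays was taken, and 34 of the 35 genes had a probe with that symbol. Ly6a was the gene with no probe listed. The array carried 45281 probes for 19057 gene symbols.

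Illumina MouseWG-6 v2 arrays were hybridized with RNA of granule neuron progenitors (GNPs) and of medulloblastomas (MB). GNPs are the cerebellar cells from which the hedgehog type of this tumour arises, and they were purified from the cerebella of mice at postnatal day 6 by a Percoll gradient and pre-plating. The 16 GNP arrays came from 4 genotypes with 4 arrays each, NdpKO;Ptch+/-, Ptch+/-, NdpKO and wild type (WT). According to the study each of them stood for a separate animal. The 2 medulloblastomas, 1 from an NdpKO;Ptch+/- mouse and 1 from a Ptch+/- mouse, were dissected from mice with symptoms and had no replicate, although their labels also give postnatal day 6. The Ndp gene, which is X-linked, was disrupted in the germ line by a cassette with lacZ, so NdpKO animals lacked Norrin in every cell. The cross restricted NdpKO and NdpKO;Ptch+/- animals to males, whereas the other genotypes could be of either sex, so sex may differ between NdpKO and WT and between NdpKO;Ptch+/- and Ptch+/- animals and cannot be told apart from genotype there. Ptch+/- animals carried 1 working copy of the hedgehog receptor gene Ptch1. Among the samples of wild-type and Ptch+/- mice the strain label was C57Bl/6, and among those of NdpKO mice it was mixed. Genotype and labelled strain therefore cannot be told apart between NdpKO and WT. The paper states that compound mutants were set against controls of their own breeding cohort so that backgrounds matched, which the labels do not show. Of the NdpKO;Ptch+/- GNP samples 1 had the label mixed and the others had none. No step of the preparation selected endothelial cells. In such bulk RNA, fewer endothelial cells and less RNA of a gene per endothelial cell cannot be told apart.

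Norrin, the secreted protein encoded by Ndp, binds the receptor Frizzled4 on endothelial cells and activates beta-catenin signalling there. In the retina and the cerebellum this pathway is known for keeping vessels in the barrier state, in which the tight junction protein Claudin-5 is present, the fenestral protein PLVAP is absent, and dedicated carriers move glucose, thyroid hormone and lipids into the brain. Pan-endothelial genes, by contrast, are shared by vessels of all organs, and their summed level is commonly used to gauge how much endothelium a sample holds. The set used here is looser, since Vcam1 is also made by other cells and Ly6c1 by some leukocytes. Its mean is therefore no pure gauge of endothelium.

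Values are on the log2 scale as deposited, on which every array had a median of 4.13 and on which a level of 5 was taken as a limit near background. Where a group lay below 5, a fold was computed against 5 and is written as a lower bound. The probe of Ptch1 was measured at 8.06 ± 0.19 in NdpKO;Ptch+/-, 7.83 ± 0.14 in Ptch+/-, 8.80 ± 0.15 in NdpKO and 8.63 ± 0.06 in WT GNPs (SD, n = 4 each), lower in both genotypes that carry the Ptch1 mutation. The Ndp probe lay at background on every array, WT included, and so checked nothing. A single array carried NdpKO;Ptch+/- in its title and Ndp knockout in its genotype label, and was kept as NdpKO;Ptch+/- replicate 2. Over 1500 variable probes, 13 of them probes of the genes listed here, 2 arrays stood apart from their genotype along the first principal component (43.6% of the variance). NdpKO replicate 4 had the sign of the WT arrays there, and NdpKO;Ptch+/- replicate 1 that of the Ptch+/- arrays. All WT arrays and the other NdpKO;Ptch+/- arrays lay on the negative side, all Ptch+/- arrays and the other NdpKO arrays on the positive side. The interaction tested below sets the same genotypes against each other. In its own principal component analysis of GNPs the paper saw no clear separation of the mutants. Results that rest on the 2 arrays that stood apart are given with and without them. Of 8 granule progenitor markers 6 were measured, and their mean lay between 10.40 and 10.82 on all GNP arrays, but the probe of Atoh1, the defining factor of these cells, lay below 5.

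Endothelial RNA was readily measured in the GNP preparations. Of the 34 genes, 19 had a mean of at least 5 over the 18 arrays, and these 19 are called measured below. They comprised 16 pan-endothelial genes and 3 barrier genes. Another 13 genes lay below 5 on every array, among them the VEGF receptor gene Kdr, the lymphatic VEGF receptor gene Flt4, the orphan receptor gene Tie1, the ETS factor genes Erg and Fli1, and Clec14a, Podxl, Apln and Pltp. A probe without signal does not show that its gene was silent. Sox17, which encodes a SOX factor of arterial endothelium, reached 5 only on NdpKO;Ptch+/- replicates 2 and 4 (5.29 and 5.4) and on WT replicate 1 (5.32).

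By class, 5 of 8 receptor genes were measured (Flt1, Tek, Aplnr, Ramp2 and Eng), 2 of 5 transcription factor genes (Sox7 and Sox18), 5 of 7 genes of surface and adhesion proteins (Cdh5, Esam, Icam2, Vcam1 and Ly6c1) and 4 of 6 genes of secreted and other proteins (Egfl7, Vwf, Nostrin and Itm2a). Of the 6 barrier transporter genes, Slc2a1, which encodes the glucose carrier of the barrier, Slco1c1, which encodes a thyroxine carrier, and Mfsd2a, which encodes a lipid carrier that restrains transcytosis, were measured. Slco1a4, Abcb1a and Abcg2, which encode an organic anion carrier and a pair of drug efflux pumps, lay below 5 throughout. Ocln and Tjp1 encode tight junction proteins. Ocln lay below 5 on every array, and Tjp1 exceeded 5 only in the NdpKO;Ptch+/- tumour, with 5.54 against 4.20 in the Ptch+/- tumour and 4.17 to 4.48 in the GNPs. The plot of levels by array shows the 19 measured genes, on which the rest of the comparisons turn.

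**Figure D1:**
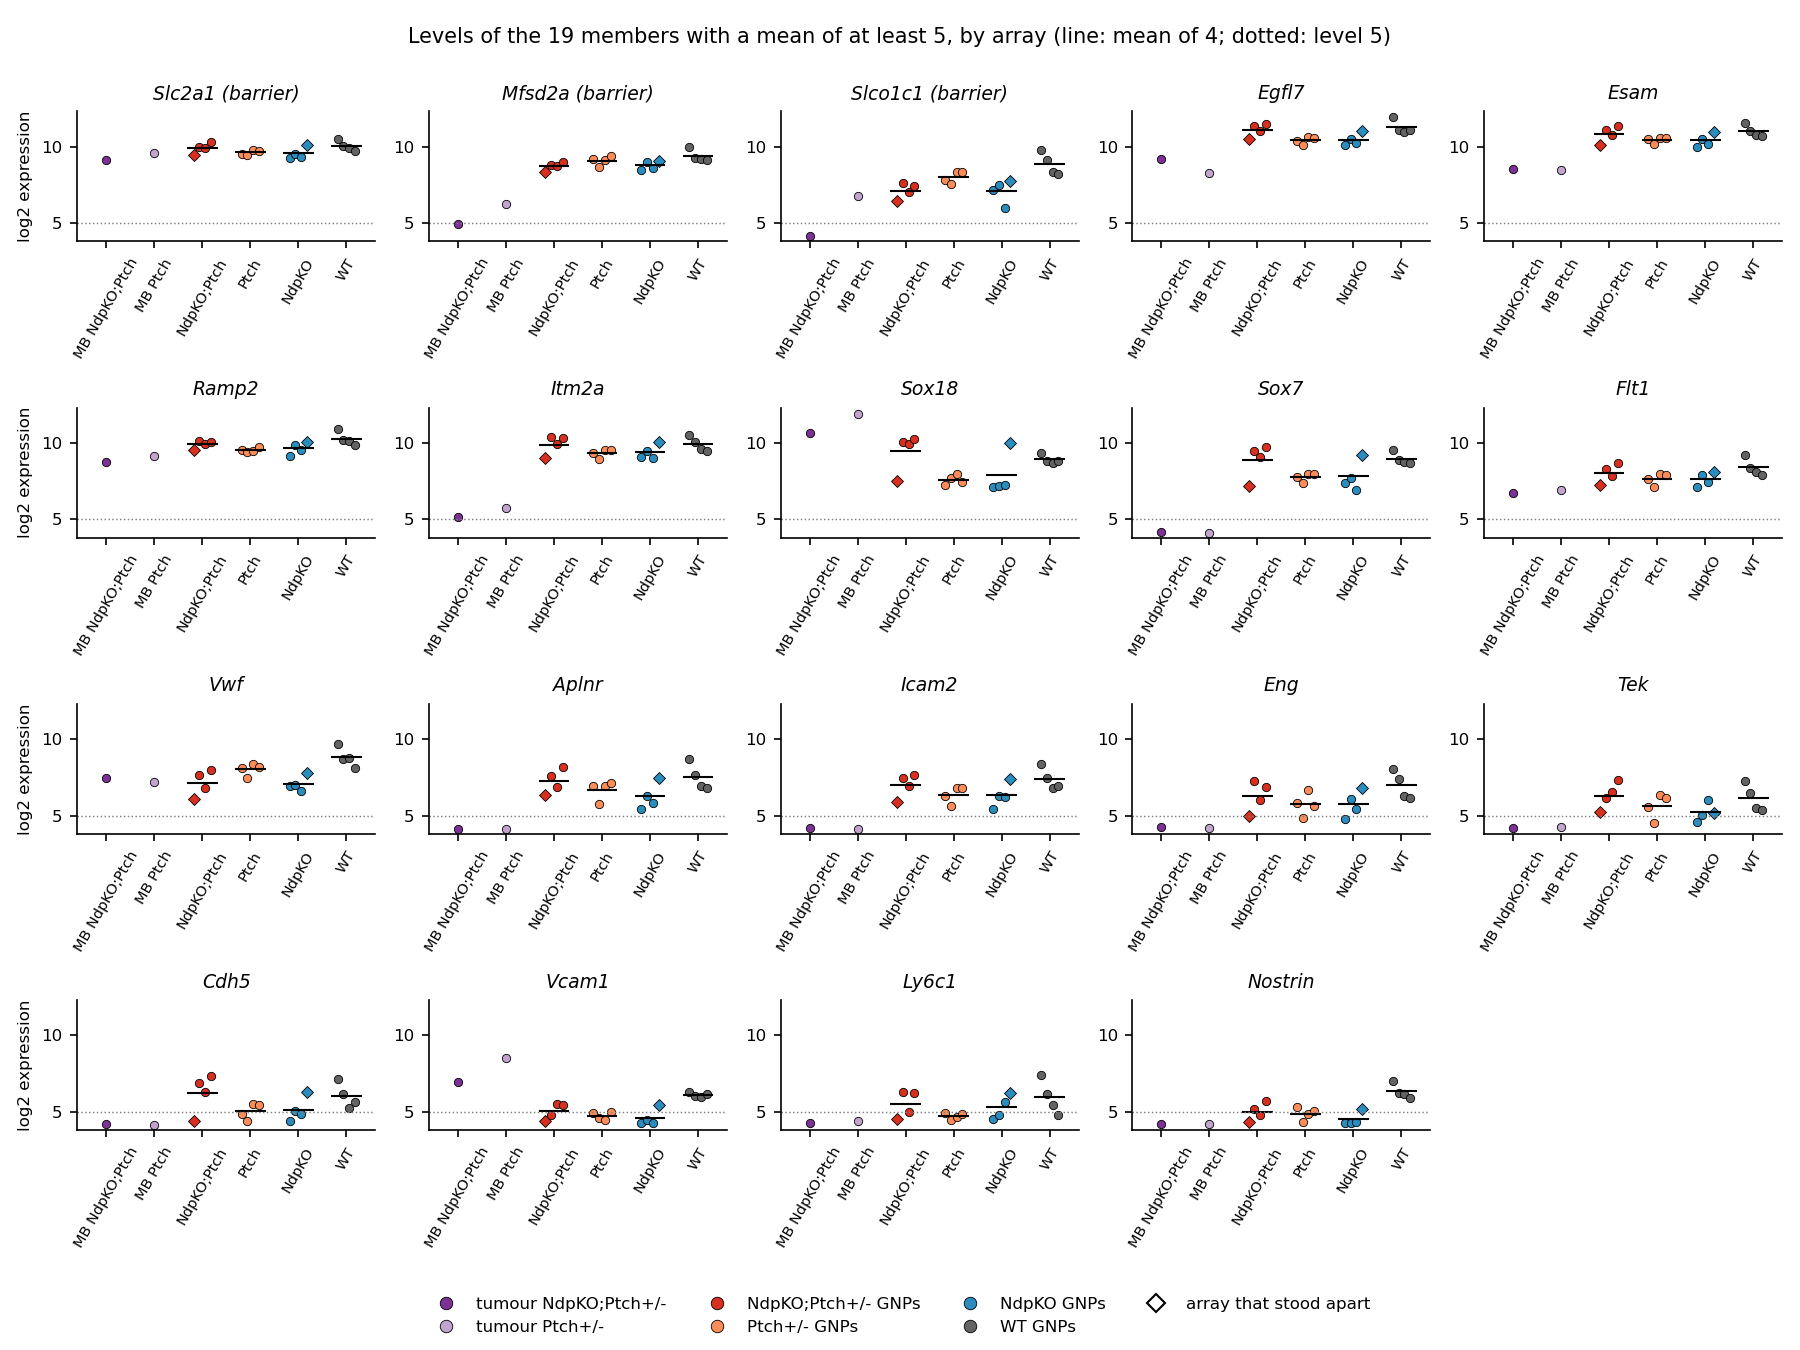
Each panel plots the log2 expression of 1 of the 19 measured genes on the 18 arrays, with the 2 tumours on the left and the 4 GNP genotypes on the right. Points are arrays, lines are means of 4 arrays, diamonds are the 2 arrays that stood apart, and the dotted line is level 5. Sox18 and Vcam1 lay above all GNPs of the same genotypes in both tumours, and in 14 of the 19 panels both tumours lay below these GNPs.

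Promoter windows were read for the genes whose levels the comparisons turned on, to show what sequence lies at their starts. RefSeq windows of 300 bases, from 250 before to 50 after an annotated start on GRCm38.p6, were matched by symbol to 22 of the 35 genes in 30 windows. Each was searched on both strands for CAGGAA, a form of the ETS factor site, ACAAAG, a form of the SOX factor site, and CTTTGA, the core of the TCF and LEF site through which beta-catenin acts. Read on the opposite strand ACAAAG is CTTTGT, which differs from CTTTGA in its last letter. CAGGAA was found in 14 of the 30 windows and in 30.6% of all 32851 windows, ACAAAG in 7 and in 18.7%, and CTTTGA in 4 and in 16% of all. The 4 genes shown are 2 barrier transporters and 2 pan-endothelial genes that were called lower in a comparison below and have 1 annotated start each, with the motifs found in either orientation in capitals.
Slco1c1: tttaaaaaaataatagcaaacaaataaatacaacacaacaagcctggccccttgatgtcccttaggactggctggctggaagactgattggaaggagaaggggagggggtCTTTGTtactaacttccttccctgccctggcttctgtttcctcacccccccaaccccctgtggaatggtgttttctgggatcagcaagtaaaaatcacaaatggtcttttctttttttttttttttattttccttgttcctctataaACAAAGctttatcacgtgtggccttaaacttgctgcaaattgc
Mfsd2a: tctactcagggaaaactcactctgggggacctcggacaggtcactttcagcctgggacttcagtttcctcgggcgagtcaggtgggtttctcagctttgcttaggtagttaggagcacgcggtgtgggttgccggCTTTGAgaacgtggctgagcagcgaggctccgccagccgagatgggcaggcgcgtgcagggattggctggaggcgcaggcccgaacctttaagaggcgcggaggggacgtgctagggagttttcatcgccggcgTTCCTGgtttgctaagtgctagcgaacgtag
Nostrin: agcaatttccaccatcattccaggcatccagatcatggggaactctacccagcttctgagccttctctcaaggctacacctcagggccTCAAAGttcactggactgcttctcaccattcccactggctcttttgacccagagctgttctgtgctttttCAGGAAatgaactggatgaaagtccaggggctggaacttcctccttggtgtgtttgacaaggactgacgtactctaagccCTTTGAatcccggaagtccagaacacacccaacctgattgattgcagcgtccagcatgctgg
Itm2a: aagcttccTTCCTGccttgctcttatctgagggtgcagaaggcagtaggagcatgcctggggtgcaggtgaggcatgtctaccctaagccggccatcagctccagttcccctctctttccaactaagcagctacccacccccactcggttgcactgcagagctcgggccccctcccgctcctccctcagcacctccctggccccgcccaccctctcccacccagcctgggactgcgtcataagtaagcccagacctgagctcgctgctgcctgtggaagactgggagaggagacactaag
The window of Slco1c1 (chr6:141524104-141524403, plus strand) held ACAAAG in both orientations, at bases 111 to 116 and 258 to 263. That of Mfsd2a (chr4:122961139-122961438, minus strand) held CTTTGA at bases 136 to 141 and CAGGAA, on the opposite strand, at bases 270 to 275. That of Nostrin (chr2:69135550-69135849, plus strand) held CTTTGA in both orientations, at bases 89 to 94 and 239 to 244, and CAGGAA at bases 159 to 164. The window of Itm2a (chrX:107403311-107403610, minus strand) held CAGGAA on the opposite strand at bases 9 to 14. Bases are counted from 1 at the 5′ end of the window, and a match describes letters only, not binding.

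The first comparison asked how loss of Norrin changed these genes in GNP preparations that already lacked a copy of Ptch1. None of the 34 genes was called in NdpKO;Ptch+/- against Ptch+/- GNPs, where 0.0155% of all probes were called by limma at an adjusted p below 0.05, and 3 of the 34 had an unadjusted p below 0.05. No measured gene separated the 4 arrays of one genotype from the 4 of the other, and of the 10855 probes with a mean of at least 5, 8.9% did. Of the 16 measured pan-endothelial genes 15 had a positive difference, with a median of 0.36 over all 26 pan-endothelial genes with a probe, while 2 of the 3 measured barrier genes, Slco1c1 and Mfsd2a, had a negative one, with a median of -0.005 over all 8. Over the measured genes alone the medians were 0.57 and -0.36. With the endothelial covariate described below, 7 genes changed sign in this comparison. The median over all probes was 0.00. Ptch+/- arrays were shared with the comparison of Ptch+/- against WT below.

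The thyroxine carrier gene Slco1c1 (ILMN_1242173), whose start held ACAAAG in both orientations in the window printed above, had values of 6.42, 7.65, 7.02 and 7.40 in NdpKO;Ptch+/- GNPs, against 7.82, 7.54, 8.36 and 8.32 in Ptch+/- GNPs. Here 3 of the NdpKO;Ptch+/- arrays lay below all Ptch+/- arrays and the highest one overlapped the lowest of them. The difference was -0.89 ± 0.43 (SE) and did not pass the threshold (limma adjusted p = 0.602). Vwf, which encodes the von Willebrand factor stored in endothelial granules, was the only measured pan-endothelial gene with a negative difference, -0.88 ± 0.42 (SE, limma adjusted p = 0.592), with 6.11, 7.66, 6.83 and 8.0 in NdpKO;Ptch+/- GNPs against 8.11, 7.46, 8.36 and 8.19 in Ptch+/- GNPs. Mfsd2a (ILMN_1225764) gave 8.34, 8.81, 8.73 and 8.99 in NdpKO;Ptch+/- GNPs, against 9.18, 8.69, 9.10 and 9.36 in Ptch+/- GNPs. Its difference of -0.36 ± 0.22 was within the overlap of the arrays (SE, limma adjusted p = 0.693). The glucose carrier gene Slc2a1 (ILMN_1258159) went the other way, with 9.48, 10.01, 9.89 and 10.33 in NdpKO;Ptch+/- GNPs, 9.52, 9.45, 9.80 and 9.70 in Ptch+/- GNPs and a difference of 0.31 ± 0.22 (SE, limma adjusted p = 0.764).

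Sox18, which encodes a SOX factor of endothelial specification, had the widest positive difference among these genes, 1.86 ± 0.67 (SE, limma adjusted p = 0.44), a ratio of 3.62. It was measured at 7.54, 10.06, 9.96 and 10.26 in NdpKO;Ptch+/- GNPs, against 7.27, 7.72, 7.95 and 7.45 in Ptch+/- GNPs. The 3 high values belonged to replicates 2 to 4, and the low one to replicate 1, the array that stood apart. Its close relative Sox7 (ILMN_2889482) behaved in the same manner, with 7.19, 9.44, 9.06 and 9.76 in NdpKO;Ptch+/- GNPs against 7.78, 7.39, 7.96 and 7.94 in Ptch+/- GNPs and a difference of 1.09 ± 0.55 (SE, limma adjusted p = 0.618). With both apart arrays left out, Sox18 and Sox7 were called, with differences of 2.49 ± 0.18 and 1.65 ± 0.26 (SE, limma adjusted p = 0.00011 and 0.00962), when 2.04% of all probes were called. Those arrays were singled out from these same data, and the third gene called then, Ocln, differed by 0.03 at background.

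Cdh5, which encodes VE-cadherin of the endothelial adherens junction, had values of 4.43, 6.92, 6.29 and 7.32 in NdpKO;Ptch+/- GNPs, against 4.83, 4.41, 5.49 and 5.47 in Ptch+/- GNPs. All but replicate 1 of the NdpKO;Ptch+/- arrays lay above every Ptch+/- array, and the difference was 1.19 ± 0.62 (SE, limma adjusted p = 0.636). Tek, which encodes the angiopoietin receptor, differed by 0.68 ± 0.55 (SE, limma adjusted p = 0.808) with wide spread, at 5.26, 6.14, 6.54 and 7.31 in NdpKO;Ptch+/- GNPs and 5.56, 4.49, 6.36 and 6.13 in Ptch+/- GNPs. Egfl7, which encodes a factor secreted by endothelium, was at 10.52, 11.38, 11.03 and 11.49 in NdpKO;Ptch+/- GNPs, against 10.34, 10.12, 10.60 and 10.55 in Ptch+/- GNPs, and the lowest NdpKO;Ptch+/- array again was replicate 1. The difference of Egfl7 was 0.70 ± 0.26 (SE, limma adjusted p = 0.465). The differences of the other 10 measured pan-endothelial genes lay between 0.13 and 0.76.

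The second comparison asked what loss of Norrin did on a background with both copies of Ptch1. All 19 measured genes had lower means in NdpKO than in WT GNPs, with medians over these of -0.98 for the 16 pan-endothelial and -0.60 for the 3 barrier genes. Over all genes with a probe, including those at background, the medians were -0.64 and -0.05. The test called 2 genes, both lower and both pan-endothelial, when 0.307% of all probes were called, and 8 of the 34 had an unadjusted p below 0.05. The groups did not overlap for 5 of the 19 measured genes, Vcam1, Nostrin, Vwf, Slco1c1 and Mfsd2a, all lower in NdpKO, beside 4.54% of the probes with a mean of at least 5.

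Vcam1 (ILMN_2778655), which encodes a leukocyte adhesion molecule of activated endothelium that other cells also make, was measured at 4.27, 4.47, 4.27 and 5.42 in NdpKO GNPs, against 6.32, 6.06, 5.99 and 6.15 in WT GNPs. Only replicate 4 of the NdpKO arrays exceeded level 5, and all 4 WT arrays lay within 5.99 to 6.32. Vcam1 fell by at least 2.19-fold, with a difference of -1.52 ± 0.28 (SE, limma adjusted p = 0.0465). Nostrin (ILMN_2777427), which encodes a protein that sequesters endothelial nitric oxide synthase, had values of 4.24, 4.25, 4.36 and 5.22 in NdpKO GNPs, against 7.03, 6.26, 6.18 and 5.89 in WT GNPs. Here too replicate 4 was the single NdpKO array above level 5, and it still lay below every WT array. Nostrin fell by at least 2.53-fold, with a difference of -1.82 ± 0.34 (SE, limma adjusted p = 0.0499). Both adjusted p-values lay close to the threshold. Both calls held without NdpKO;Ptch+/- replicate 1 or without NdpKO replicate 4, that of Nostrin alone held without NdpKO;Ptch+/- replicate 4 or without WT replicate 4, and neither held without any 1 of the remaining 12 arrays or when the array with disagreeing labels was counted as NdpKO.

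Slco1c1 had values of 7.15, 7.50, 6.01 and 7.74 in NdpKO GNPs, against 9.79, 9.11, 8.33 and 8.20 in WT GNPs. Each NdpKO array, replicate 4 included, lay below each WT array. The difference of -1.76 ± 0.43 was a 3.38-fold ratio but did not pass the threshold (SE, limma adjusted p = 0.123). Vwf showed a like picture, with 6.95, 7.03, 6.63 and 7.75 in NdpKO GNPs, against 9.65, 8.72, 8.78 and 8.12 in WT GNPs, a difference of -1.73 ± 0.42 (SE, limma adjusted p = 0.119) and a ratio of 3.31. Mfsd2a had values of 8.48, 8.99, 8.58 and 9.08 in NdpKO GNPs and 9.98, 9.23, 9.20 and 9.13 in WT GNPs. The groups parted by only a small gap, and the difference of -0.60 ± 0.22 did not pass the threshold (SE, limma adjusted p = 0.307). Slc2a1 overlapped, with 9.28, 9.53, 9.32 and 10.13 in NdpKO GNPs against 10.49, 10.01, 9.88 and 9.72 in WT GNPs.

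For several pan-endothelial genes NdpKO replicate 4 lay far above the other NdpKO arrays. Sox18 was measured at 7.13, 7.18, 7.26 and 9.96 in NdpKO GNPs, against 9.37, 8.79, 8.71 and 8.81 in WT GNPs, so that 3 NdpKO arrays lay below and 1 above every WT array. Sox7 was measured at 7.39, 7.70, 6.93 and 9.23 in NdpKO GNPs, against 9.56, 8.88, 8.75 and 8.67 in WT GNPs. With both apart arrays left out, 7 genes were called lower in NdpKO than in WT GNPs when 2.36% of all probes were: Sox18 (-1.73 ± 0.18, SE), Sox7 (-1.62 ± 0.26), Nostrin (-2.06 ± 0.31), Vcam1 (-1.79 ± 0.18), Vwf (-1.95 ± 0.37), Slco1c1 (-1.97 ± 0.44) and Egfl7 (-0.99 ± 0.22), with limma adjusted p-values of 0.00177, 0.0125, 0.0087, 0.00128, 0.0233, 0.0454 and 0.0455. Slco1c1 was the one barrier gene among them. NdpKO replicate 4 was set apart on these same data for its likeness to the WT arrays. Leaving it out widened each of these 7 differences, so the calls are no separate support. Among NdpKO arrays Egfl7 was measured at 10.13, 10.47, 10.24 and 11.03, against 11.91, 11.07, 10.98 and 11.10 in WT GNPs. The values of Cdh5 (4.37, 5.02, 4.83 and 6.28 in NdpKO GNPs, 7.13, 6.19, 5.23 and 5.64 in WT GNPs) and of Tek (4.60, 5.05, 6.05 and 5.15 in NdpKO GNPs, 7.24, 6.47, 5.52 and 5.34 in WT GNPs) overlapped.

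Loss of 1 copy of Ptch1 alone was examined next, with the WT arrays shared with the preceding comparison. Again all 19 measured genes had lower means in Ptch+/- than in WT GNPs, with medians over these of -0.93 for the pan-endothelial and -0.41 for the barrier genes. Over all genes with a probe the medians were -0.67 and -0.03. Vcam1 was the 1 gene called, when 1.09% of all probes were, and 5 of the 34 had an unadjusted p below 0.05. This gene had values of 4.92, 4.61, 4.49 and 5.0 in Ptch+/- GNPs, none above 5.0, against the WT values given above, a fall of at least 2.19-fold with a difference of -1.38 ± 0.28 (SE, limma adjusted p = 0.0372). This call was lost without any 1 of the Ptch+/- or WT arrays, without NdpKO;Ptch+/- replicate 2 and without NdpKO replicate 2. The groups did not overlap for 7 measured genes, all pan-endothelial and all lower in Ptch+/-, beside 10.3% of the probes with a mean of at least 5. These were Vcam1, Nostrin, Sox7, Sox18, Egfl7, Esam and Ramp2. Nostrin, at 5.30, 4.32, 4.87 and 5.05 in Ptch+/- GNPs, differed by -1.46 ± 0.34 from WT and did not pass the threshold (SE, limma adjusted p = 0.0644). With both apart arrays left out, 5 genes were called lower in Ptch+/- than in WT GNPs when 3.1% of all probes were called: Sox18 (-1.32 ± 0.17, SE), Sox7 (-1.20 ± 0.24), Vcam1 (-1.38 ± 0.17), Nostrin (-1.46 ± 0.28) and Egfl7 (-0.86 ± 0.20), with limma adjusted p-values of 0.00318, 0.0248, 0.00259, 0.0213 and 0.0492. Neither apart array was Ptch+/- or WT, so the differences stayed the same and only the estimate of spread changed. The SE of Sox18 was 0.67 with these arrays. They were singled out from these same data, so the calls are no separate support.

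Esam, which encodes an adhesion molecule of endothelial tight junctions, was measured at 10.50, 10.16, 10.57 and 10.59 in Ptch+/- GNPs, against 11.57, 11.0, 10.77 and 10.71 in WT GNPs. Its difference was -0.56 ± 0.28 (SE, limma adjusted p = 0.439). Ramp2, which encodes the partner of the adrenomedullin receptor, was measured at 9.52, 9.40, 9.47 and 9.70 in Ptch+/- GNPs, against 10.91, 10.21, 10.12 and 9.84 in WT GNPs, with a difference of -0.75 ± 0.23 (SE, limma adjusted p = 0.162). No barrier gene separated the groups. Slco1c1 differed by -0.85 ± 0.43 and Mfsd2a by -0.31 ± 0.22 (SE, limma adjusted p = 0.444 and 0.637), and the WT array replicate 1 was the highest of its group for each of Slco1c1, Mfsd2a and Slc2a1.

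The remaining measured pan-endothelial genes were called in no comparison of GNP genotypes. Aplnr, which encodes the apelin receptor of sprouting vessels, averaged 7.25 ± 0.79 in NdpKO;Ptch+/-, 6.69 ± 0.65 in Ptch+/-, 6.25 ± 0.87 in NdpKO and 7.54 ± 0.86 in WT GNPs (SD, n = 4 each). Flt1, which encodes a VEGF receptor that acts mainly as a decoy, averaged 8.02 ± 0.63 in NdpKO;Ptch+/-, 7.66 ± 0.38 in Ptch+/-, 7.64 ± 0.44 in NdpKO and 8.40 ± 0.57 in WT GNPs. For both receptor genes the WT mean was the highest and the spread within a genotype was wide. Eng, which encodes a co-receptor of the TGF-beta family, averaged 6.29 ± 1.02 in NdpKO;Ptch+/-, 5.75 ± 0.74 in Ptch+/-, 5.76 ± 0.86 in NdpKO and 6.97 ± 0.93 in WT GNPs. Icam2, which encodes a ligand of leukocyte integrins, averaged 6.98 ± 0.80 in NdpKO;Ptch+/-, 6.37 ± 0.55 in Ptch+/-, 6.35 ± 0.81 in NdpKO and 7.38 ± 0.71 in WT GNPs. Itm2a, which encodes a small membrane protein, averaged 9.90 ± 0.64 in NdpKO;Ptch+/-, 9.32 ± 0.27 in Ptch+/-, 9.40 ± 0.46 in NdpKO and 9.92 ± 0.49 in WT GNPs. Against WT the differences of Eng, Icam2 and Itm2a in NdpKO and Ptch+/- GNPs lay between -1.23 and -0.52. Ly6c1, a surface antigen of brain endothelium and of some leukocytes, averaged 5.49 ± 0.89 in NdpKO;Ptch+/-, 4.73 ± 0.22 in Ptch+/-, 5.29 ± 0.79 in NdpKO and 5.95 ± 1.12 in WT GNPs. The plot of differences sets the comparisons of GNP genotypes side by side.

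**Figure D2:**
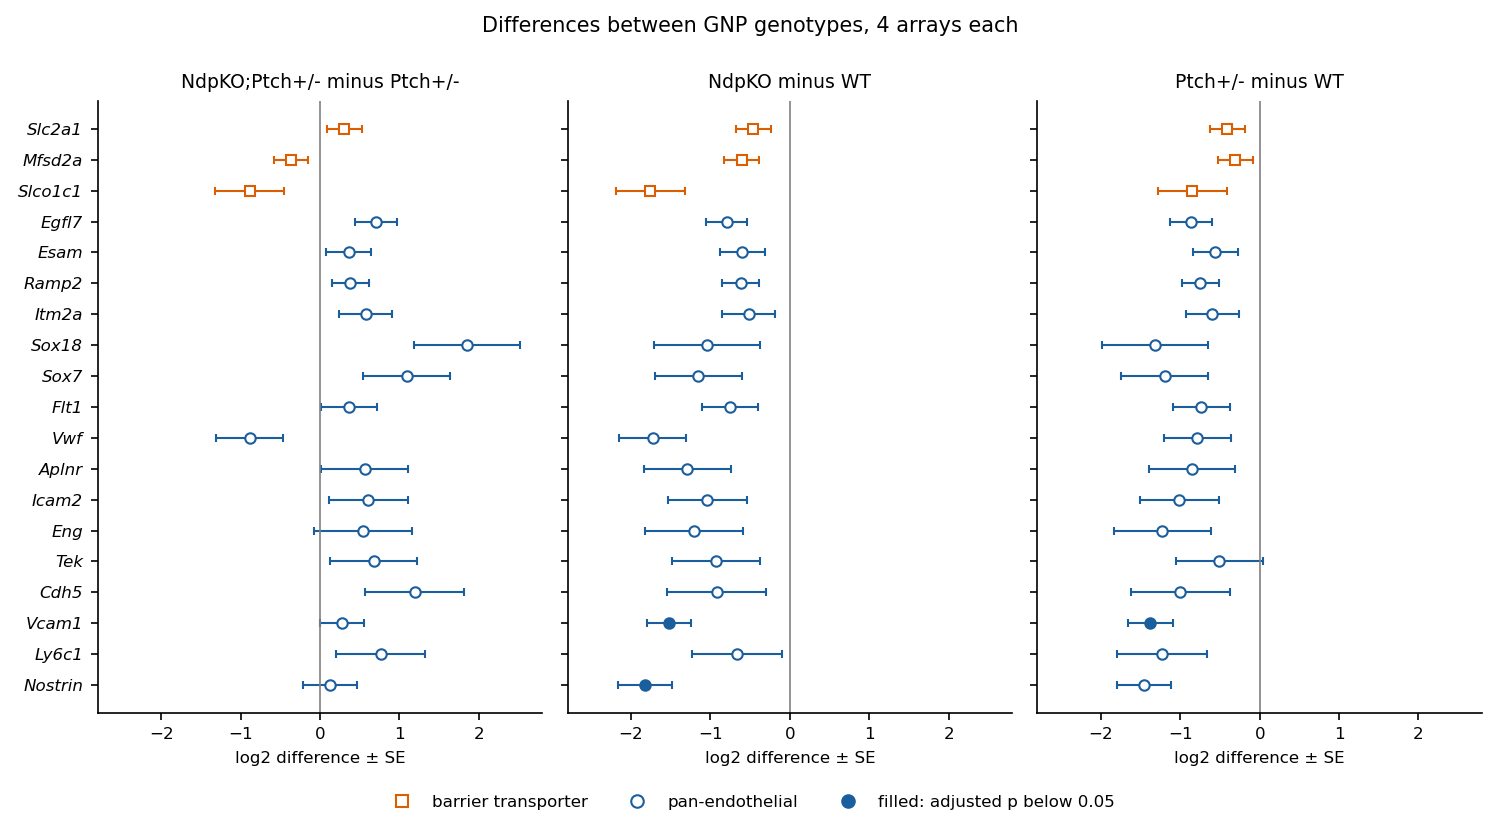
The log2 difference ± SE of each measured gene is plotted for NdpKO;Ptch+/- minus Ptch+/-, NdpKO minus WT and Ptch+/- minus WT GNPs, with squares for barrier transporters and circles for pan-endothelial genes. Filled symbols passed an adjusted p below 0.05, which were Vcam1 and Nostrin in NdpKO minus WT and Vcam1 in Ptch+/- minus WT. In the left panel Slco1c1, Vwf and Mfsd2a lie left of 0 and the other 16 genes right of it.

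Whether loss of Norrin acted differently with and without the Ptch1 mutation was tested as an interaction, the difference between NdpKO;Ptch+/- and Ptch+/- minus that between NdpKO and WT. It was positive for all 19 measured genes, with medians over these of 1.63 for the pan-endothelial and 0.77 for the barrier genes. Over all genes with a probe the medians were 1.05 and 0.05. For the 16 measured genes with a positive difference in NdpKO;Ptch+/- against Ptch+/-, this sign follows from the comparisons above. All 19 were negative in NdpKO against WT, so the count is no further observation. All 10 astrocyte and Bergmann glia genes with a probe also had a positive interaction, and Sox9 was called. None of the 34 genes was called by limma, when 0.495% of all probes were, and 14 had an unadjusted p below 0.05. The lowest adjusted p-values were those of Vcam1 (1.80 ± 0.39, SE, limma adjusted p = 0.0642), Nostrin (1.95 ± 0.48, adjusted p = 0.0896) and Egfl7 (1.5 ± 0.37, adjusted p = 0.0913). In NdpKO;Ptch+/- GNPs Vcam1 was measured at 4.43, 4.77, 5.5 and 5.42 and Nostrin at 4.35, 5.18, 4.79 and 5.74. Without both apart arrays 11 genes were called, 10 of them pan-endothelial and 1, Slc2a1, a barrier gene, when 5.69% of all probes were called. Both arrays were singled out from these same data, so these calls are no separate support.

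The level of the pan-endothelial genes as a group varied from array to array. Their mean over the 16 measured genes lay between 6.71 and 8.42 in NdpKO;Ptch+/-, 6.67 and 7.42 in Ptch+/-, 6.54 and 7.94 in NdpKO and 7.65 and 8.93 in WT GNPs. The mean of the 3 measured barrier genes lay between 8.08 and 8.90, 8.56 and 9.13, 7.97 and 8.98, and 9.02 and 10.08 in the same genotypes. Markers of other cells were measured beside them. Of 10 astrocyte and Bergmann glia genes 9 were measured. Of the 10, 9 had a positive difference in NdpKO;Ptch+/- against Ptch+/-, none a positive one in NdpKO against WT and 1 in Ptch+/- against WT. The mean of the 9 lay between 9.0 and 9.43 in NdpKO;Ptch+/-, 8.70 and 9.09 in Ptch+/-, 8.26 and 9.35 in NdpKO and 9.51 and 10.08 in WT GNPs. Gfap was called lower in NdpKO than in WT and Sox9 lower in Ptch+/- than in WT. Of 12 microglia and leukocyte genes 10 were lower in NdpKO than in WT and 11 lower in Ptch+/- than in WT, none of them called, and the mean of the 4 measured ones lay between 6.00 and 7.23 in NdpKO;Ptch+/-, 6.11 and 7.09 in Ptch+/-, 5.69 and 6.84 in NdpKO and 7.06 and 8.26 in WT GNPs. Of 8 immediate-early and heat shock genes, which respond to dissociation, 8 had a negative difference in NdpKO;Ptch+/- against Ptch+/-, none of them called, and 4 had one in NdpKO against WT, where Atf3 and Hspa1a were called lower. The mean of the 6 measured ones lay between 9.91 and 10.17 in NdpKO;Ptch+/-, against 10.43 and 10.57 in Ptch+/- GNPs, and between 10.03 and 10.22 in NdpKO, against 10.53 and 10.89 in WT GNPs. The mean of 6 measured granule progenitor markers lay between 10.40 and 10.75 in NdpKO;Ptch+/-, 10.66 and 10.82 in Ptch+/-, 10.42 and 10.79 in NdpKO and 10.42 and 10.50 in WT GNPs, and NdpKO replicate 4 was the lowest NdpKO array. Zic2 and Ccnd2 were called higher in Ptch+/- than in WT GNPs, with a negative interaction that was also called. The part of these cells and of this response in the endothelial differences was not tested.

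**Figure D3:**
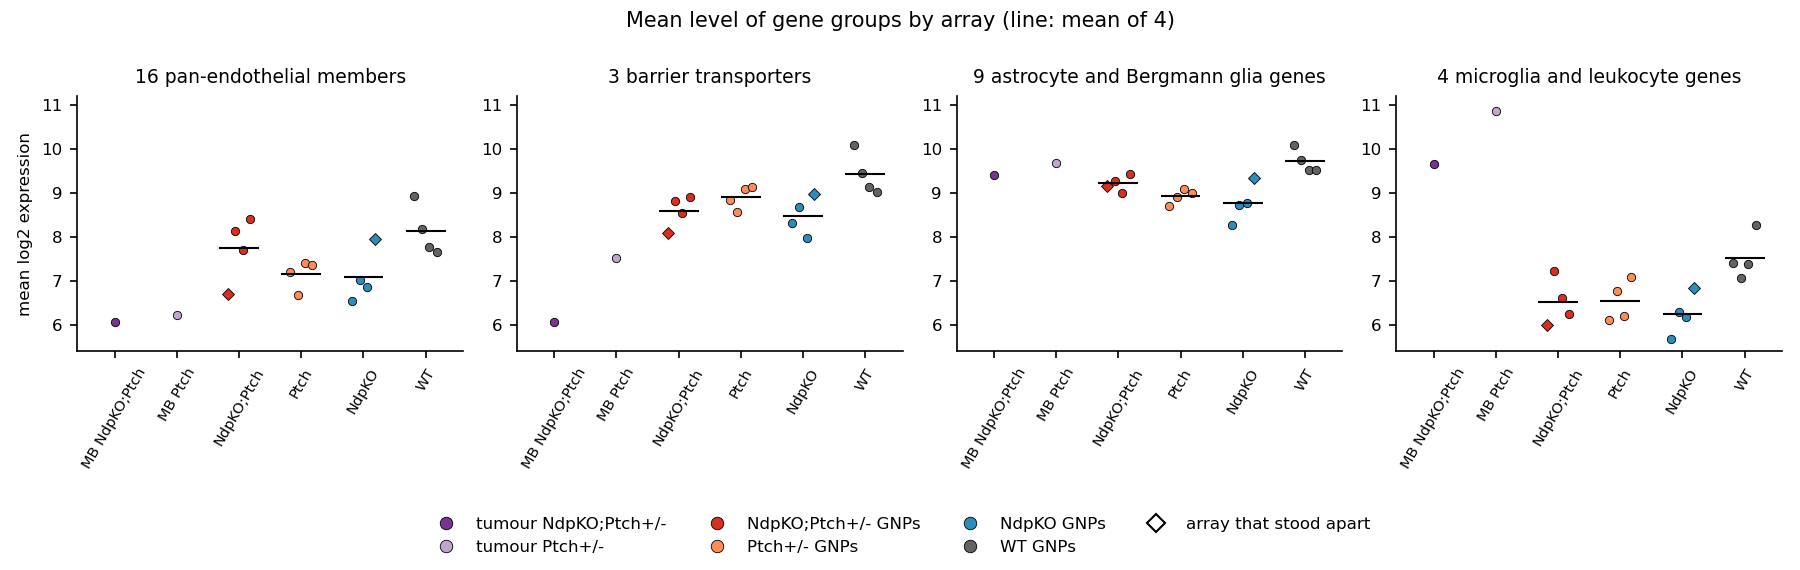
The mean log2 expression of gene groups is plotted by array for the 16 measured pan-endothelial genes, the 3 measured barrier transporters, 9 astrocyte and Bergmann glia genes and 4 microglia and leukocyte genes. Points are arrays, lines are means of 4 arrays and diamonds are the 2 arrays that stood apart. In the NdpKO;Ptch+/- tumour the barrier transporters averaged 6.06, against 7.52 in the Ptch+/- tumour and 7.97 or more in all GNPs.

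To read single genes beside that group level, each gene was set against the mean of 4 pan-endothelial genes on the same array (Esam, Egfl7, Ramp2 and Icam2), a choice made after the data were seen. These 4 genes themselves differed by 0.36, 0.70, 0.38 and 0.61 in NdpKO;Ptch+/- against Ptch+/-. In NdpKO against WT they differed by -0.60, -0.80, -0.62 and -1.04. A gene that did not move with them was thus shifted on this scale. The share of all probes that part on it was not computed. On this relative scale Slco1c1 lay at -2.58, -2.36, -2.63 and -2.75 in NdpKO;Ptch+/- GNPs, against -1.35, -1.29, -0.99 and -1.09 in Ptch+/- GNPs. It lay at -1.53, -1.77, -3.03 and -2.13 in NdpKO GNPs, against -0.90, -0.82, -1.33 and -1.44 in WT GNPs. Every NdpKO;Ptch+/- array lay below every Ptch+/- array, and every NdpKO array below every WT array. The group means were -2.58 ± 0.16 in NdpKO;Ptch+/-, -1.18 ± 0.17 in Ptch+/-, -2.12 ± 0.66 in NdpKO and -1.13 ± 0.31 in WT GNPs (SD, n = 4 each), and the single array NdpKO replicate 3 was the lowest. Vwf parted in the same way in both backgrounds, with means of -2.56 ± 0.36 in NdpKO;Ptch+/-, -1.16 ± 0.17 in Ptch+/-, -2.13 ± 0.29 in NdpKO and -1.17 ± 0.28 in WT GNPs (SD, n = 4 each). Mfsd2a parted on the Ptch+/- background, at -0.66, -1.20, -0.93 and -1.16 in NdpKO;Ptch+/- GNPs against 0.02, -0.14, -0.26 and -0.05 in Ptch+/- GNPs. In NdpKO and WT GNPs its relative levels overlapped, with means of -0.44 ± 0.26 and -0.60 ± 0.13 (SD, n = 4 each). For Slc2a1 the relative levels of NdpKO;Ptch+/- and Ptch+/- GNPs overlapped, whereas every NdpKO array lay above every WT array, at 0.60, 0.26, 0.28 and 0.25 in NdpKO GNPs against -0.20, 0.08, 0.22 and 0.07 in WT GNPs. Other genes parted on this scale too. Between NdpKO;Ptch+/- and Ptch+/- GNPs these were Cldn5 (1.21 to 1.71 against 1.77 to 1.99) and, in the other direction, Plvap. Between NdpKO and WT GNPs Nostrin and Vcam1 parted, both lower in NdpKO, whereas Sox7 and Sox18 overlapped in both comparisons.

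When the mean of these 4 genes was entered in the fit as a covariate, the differences between NdpKO;Ptch+/- and Ptch+/- GNPs were -1.51 ± 0.21 for Vwf, -0.70 ± 0.10 for Mfsd2a and -1.46 ± 0.30 for Slco1c1 (SE), and they did not pass the threshold (limma adjusted p = 0.0542, 0.0542 and 0.293). Between NdpKO and WT GNPs they were -0.80 ± 0.23 for Vwf, -0.11 ± 0.11 for Mfsd2a and -0.91 ± 0.33 for Slco1c1, and did not pass it either (limma adjusted p = 0.516, 0.961 and 0.68). With the covariate 7, 8 and 21 of all probes were called in NdpKO;Ptch+/- against Ptch+/-, NdpKO against WT and Ptch+/- against WT, and none of the listed genes. The interaction with the covariate was -0.55 ± 0.49 for Slco1c1, -0.71 ± 0.35 for Vwf and -0.59 ± 0.16 for Mfsd2a, and did not pass the threshold (limma adjusted p = 0.946, 0.861 and 0.621). Of the 15 measured genes outside the covariate, 5 then had a positive difference in NdpKO;Ptch+/- against Ptch+/-, where 12 had one without it. In NdpKO against WT 10 turned positive, in Ptch+/- against WT 13 did, and in the interaction 11 turned negative.

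**Figure D4:**
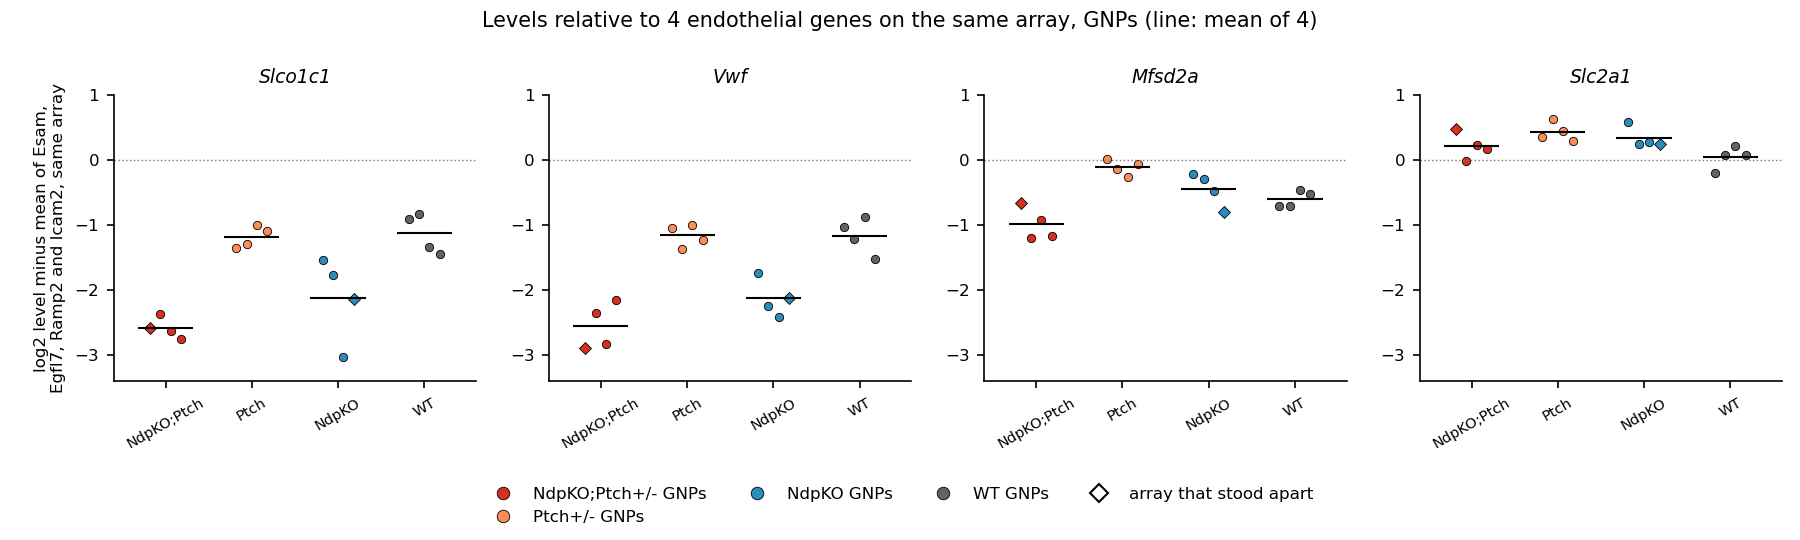
The log2 level of Slco1c1, Vwf, Mfsd2a and Slc2a1 minus the mean of Esam, Egfl7, Ramp2 and Icam2 on the same array is plotted for the 16 GNP arrays by genotype. Lines are means of 4 arrays and diamonds are the arrays that stood apart. For Slco1c1 and Vwf the arrays of NdpKO;Ptch+/- lie below those of Ptch+/-, and the arrays of NdpKO below those of WT, with no overlap. The genes of that mean were chosen after the data were seen and themselves differed between genotypes. The share of all probes that part on this scale was not computed.

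Cldn5 and Plvap, both outside the list, are the classic pair read for barrier and fenestrated vessels. Cldn5 was measured at 10.71, 11.22, 11.13 and 11.63 in NdpKO;Ptch+/- GNPs, against 11.15, 10.59, 11.29 and 11.28 in Ptch+/- GNPs. It was measured at 10.56, 11.08, 10.71 and 11.34 in NdpKO GNPs, against 12.45, 11.79, 11.06 and 11.42 in WT GNPs, and was called in neither comparison (limma adjusted p = 0.967 and 0.354). Plvap was measured at 6.26, 7.43, 6.64 and 7.47 in NdpKO;Ptch+/- GNPs, against 4.54, 4.77, 4.56 and 4.36 in Ptch+/- GNPs, with no overlap and a difference of 2.39 ± 0.41 (SE, limma adjusted p = 0.108). In NdpKO GNPs it was measured at 4.81, 5.22, 6.17 and 6.42, against 4.32, 4.39, 4.29 and 5.71 in WT GNPs, where 1 WT array overlapped. Pecam1, a general endothelial marker, was measured at 5.33, 7.0, 5.96 and 7.07 in NdpKO;Ptch+/- GNPs and 5.12, 4.36, 5.90 and 4.81 in Ptch+/- GNPs, which overlapped.

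Further genes of the same functions were looked at as lists. Of 13 other barrier genes with a probe 5 were measured, and none was called between GNP genotypes. Of 15 other endothelial genes 9 were measured, and none was called between GNP genotypes. Among 10 genes of the Norrin and Wnt response, the probes of Fzd4, Lrp5 and Lef1 lay below 5, and 1 gene, Apcdd1, which encodes a membrane-bound Wnt inhibitor, was called, with 9.29 ± 0.26 in NdpKO and 10.42 ± 0.32 in WT GNPs (SD, n = 4) and a difference of -1.13 ± 0.17 (SE, limma adjusted p = 0.0229).

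The last comparison asked how these genes stood in the tumours. Each tumour was set against the GNPs of its genotype in 1 model with 2 tumours and 8 GNP arrays. Of the 34 genes 10 were called, 9 lower and 1 higher in the tumours, when 14.7% of all probes were called, and all 10 had a mean of at least 5, among probes of which 37.9% were called. In 14 of the 19 measured genes both tumours lay below all 8 GNP arrays, beside 28.2% of the probes with a mean of at least 5, and the mean that defines a measured gene comes mostly from GNP arrays. Tumours were dissected pieces and GNPs were purified cells, so tumour growth and preparation cannot be told apart.

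Sox7 was measured at 4.19 in the NdpKO;Ptch+/- and 4.14 in the Ptch+/- tumour, both at background, against the GNP values of 7.19 to 9.76 given above, at least 9.95-fold lower (-4.15 ± 0.61, SE, limma adjusted p = 0.00293). Sox18 went the opposite way, with 10.63 in the NdpKO;Ptch+/- and 11.87 in the Ptch+/- tumour, above all 8 GNP arrays. Its difference of 2.73 ± 0.86 did not pass the threshold (SE, limma adjusted p = 0.0806). Sox18 thus did not move with Sox7, and which cells gave its signal was not tested. Vcam1 was the gene called higher, at 6.97 in the NdpKO;Ptch+/- and 8.51 in the Ptch+/- tumour, at least 6.68-fold above the GNPs (2.85 ± 0.43, SE, limma adjusted p = 0.00335).

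Itm2a was measured at 5.15 in the NdpKO;Ptch+/- and 5.77 in the Ptch+/- tumour, against 8.98, 10.36, 9.93 and 10.31 in NdpKO;Ptch+/- and 9.33, 8.93, 9.51 and 9.51 in Ptch+/- GNPs. It was 17.7-fold lower in the tumours (-4.15 ± 0.41, SE, limma adjusted p = 0.00035). Aplnr was at background in both tumours, 4.14 and 4.13, against 6.36, 7.59, 6.89 and 8.17 in NdpKO;Ptch+/- and 6.96, 5.73, 6.94 and 7.13 in Ptch+/- GNPs. Icam2 was likewise at background, 4.19 and 4.14, against 5.88, 7.45, 6.91 and 7.69 in NdpKO;Ptch+/- and 6.29, 5.62, 6.78 and 6.80 in Ptch+/- GNPs. Aplnr and Icam2 were at least 3.92-fold and at least 3.2-fold lower in the tumours (-2.84 ± 0.52 and -2.51 ± 0.49, SE, limma adjusted p = 0.0081 and 0.0119).

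Some pan-endothelial genes stayed well above background in the tumours. Egfl7 stood at 9.19 in the NdpKO;Ptch+/- and 8.30 in the Ptch+/- tumour, 4.03-fold below the GNPs (-2.01 ± 0.24, SE, limma adjusted p = 0.00105). Esam stood at 8.57 and 8.48 in these tumours, against 10.09, 11.08, 10.75 and 11.35 in NdpKO;Ptch+/- and 10.50, 10.16, 10.57 and 10.59 in Ptch+/- GNPs (-2.11 ± 0.29, SE, limma adjusted p = 0.002). Ramp2 changed least among the genes called, at 8.74 and 9.14 in the same tumours, against 9.50, 10.12, 9.92 and 10.08 in NdpKO;Ptch+/- and 9.52, 9.40, 9.47 and 9.70 in Ptch+/- GNPs (-0.77 ± 0.21, SE, limma adjusted p = 0.0464). Vwf showed no such fall, with 7.44 and 7.19 in the tumours, inside the range of the 8 GNP arrays, and a difference of -0.27 ± 0.51 (SE, limma adjusted p = 0.828). Cdh5 and Tek, at 4.22 and 4.20 in the NdpKO;Ptch+/- and 4.17 and 4.24 in the Ptch+/- tumour, were at background and were not called (limma adjusted p = 0.269 and 0.107).

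Of the 3 measured barrier transporters, 2 fell in the tumours. Mfsd2a was measured at 4.93 in the NdpKO;Ptch+/- and 6.25 in the Ptch+/- tumour, 9.91-fold below the GNPs (-3.31 ± 0.26, SE, limma adjusted p = 1.0e-04). Slco1c1 was at background in the NdpKO;Ptch+/- tumour, 4.14, and at 6.75 in the Ptch+/- tumour (-2.12 ± 0.46, SE, limma adjusted p = 0.0176). Slc2a1, by contrast, stood at 9.11 and 9.56, and its difference of -0.44 ± 0.23 was not called (SE, limma adjusted p = 0.308). The calls of Aplnr, Icam2, Ramp2 and Slco1c1 were lost without the NdpKO;Ptch+/- tumour, that of Icam2 also without the Ptch+/- tumour, and that of Ramp2 also without any 1 of 7 of the GNP arrays.

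Between the 2 tumours, each a single array, no test could be made. Of the 19 measured genes 8, all pan-endothelial, were below 5 in both. Among the other 11, 8 were lower in the NdpKO;Ptch+/- than in the Ptch+/- tumour, including all 3 barrier transporters. Slco1c1 was at least 3.36-fold, Mfsd2a at least 2.38-fold and Slc2a1 1.37-fold lower in the NdpKO;Ptch+/- tumour. Vcam1 was 2.9-fold and Sox18 2.35-fold lower in it, while Egfl7 was 1.86-fold higher and Esam and Vwf were higher by 0.09 and 0.25 on the log2 scale. Of the other barrier genes, the amino acid carrier gene Slc38a5 was measured at 4.21 in the NdpKO;Ptch+/- and 8.51 in the Ptch+/- tumour, the transcription factor gene Foxq1 at 4.33 and 6.11, and Cldn5 at 8.18 and 8.64. The proteoglycan gene Spock2 went the other way, with 6.18 in the NdpKO;Ptch+/- and 4.69 in the Ptch+/- tumour, and the fifth measured one, Slc38a3, was at 4.67 and 5.05. Plvap was measured at 6.54 in the NdpKO;Ptch+/- and 4.17 in the Ptch+/- tumour.

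**Figure D5:**
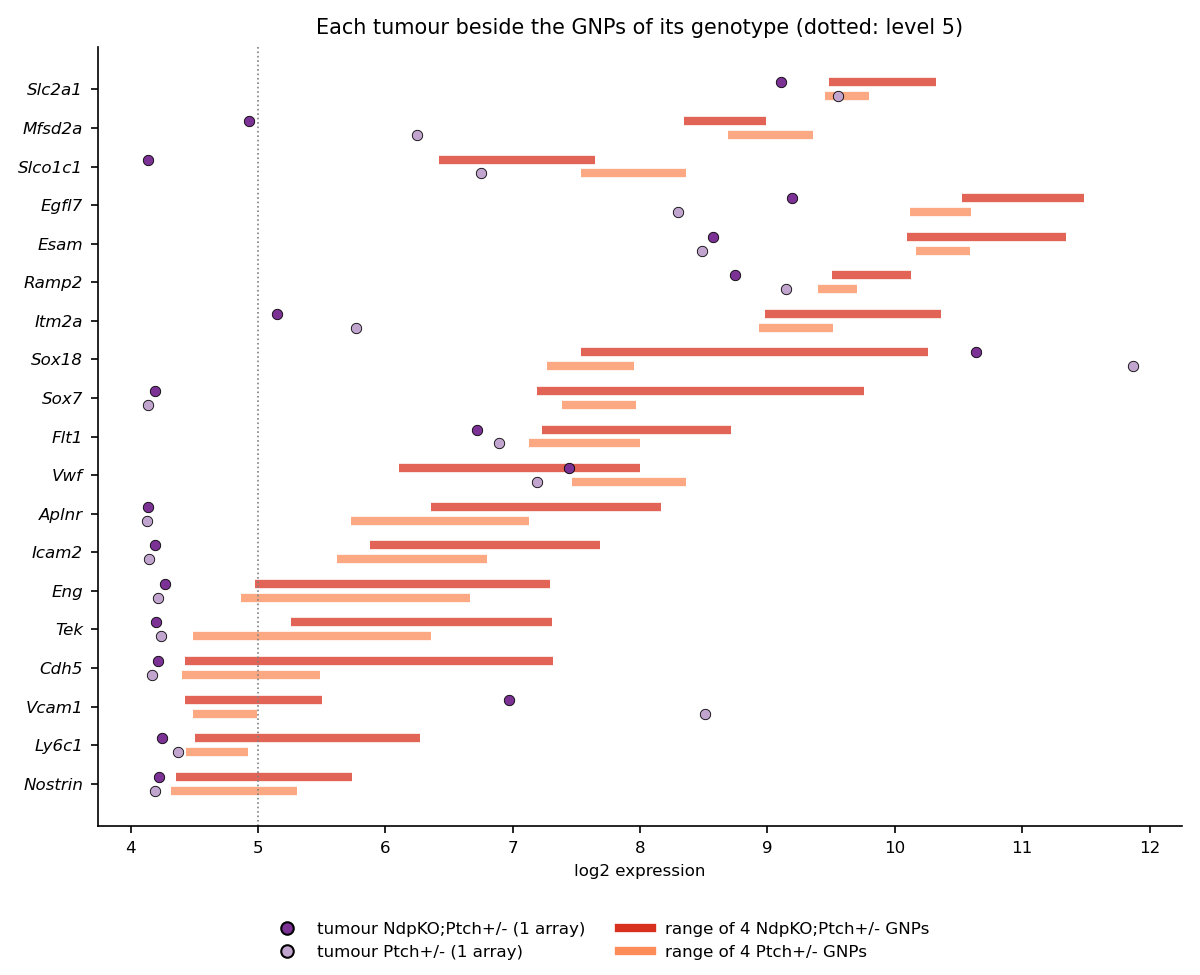
For each measured gene the log2 expression of the NdpKO;Ptch+/- tumour and of the Ptch+/- tumour (points, 1 array each) is plotted beside the range of the 4 GNP arrays of the same genotype (bars). The dotted line is level 5. Sox18 and Vcam1 lie to the right of the GNPs in both tumours, Sox7, Itm2a and Mfsd2a far to the left, and Slco1c1 is at background only in the NdpKO;Ptch+/- tumour.

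Markers of other cells also differed between tumours and GNPs. Of 12 microglia and leukocyte genes 10 were called higher in the tumours, and the mean of the 4 measured ones was 9.66 in the NdpKO;Ptch+/- and 10.86 in the Ptch+/- tumour, against 6.00 to 7.23 in NdpKO;Ptch+/- and 6.11 to 7.09 in Ptch+/- GNPs. Of 8 immediate-early and heat shock genes 7 were called lower, with means of 6.44 and 6.45 in the tumours, against 9.91 to 10.17 in NdpKO;Ptch+/- and 10.43 to 10.57 in Ptch+/- GNPs. Haemoglobin genes were lower as well, 3 of 5 being called, with means of 9.66 and 9.82 in the tumours and 12.14 or more in these GNPs. The 3 measured pericyte and smooth muscle genes averaged 8.33 in the NdpKO;Ptch+/- and 6.04 in the Ptch+/- tumour. Their GNP means were 8.20 to 8.87 in NdpKO;Ptch+/- and 8.30 to 8.67 in Ptch+/-, so only the Ptch+/- tumour lay outside the GNPs. Of 9 such genes with a probe, 2 were called higher and 1 lower in the tumours. The part of these other markers in the endothelial differences was not tested. Of the other barrier genes, 4 measured ones (Cldn5, Slc38a5, Foxq1 and Spock2) were called lower in the tumours. Another 2, Abcb1b and Jam2, each with a mean below 5, were called higher. Of the other endothelial genes Emcn, Robo4 and Rasip1 were called lower. Beside these calls, 14.7% of all probes were called, and 37.9% of those with a mean of at least 5.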

How the data were processed

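RNA of 16 GNP preparations and 2 medulloblastomas had been hybridized to Illumina MouseWG-6 v2 arrays. The authors corrected the background with control probes, normalized by quantiles between arrays and transformed the values to the log2 scale with the neqc function of limma, and these deposited log2 values were used as they were, over all 45281 probes. Quantile normalization gives every array the same distribution, so a shift shared by most genes would be removed, and values near background are compressed. The number of arrays, not a read depth, limits the precision. Symbols came from the platform annotation, which pairs 34885 probes with 1 symbol, 18 with several and 10378 with none. No replicate columns were identical. With limma 3.58.1 in R 4.3.3 the 16 GNP arrays were fitted together, each genotype having its own mean, and the tumours with 8 GNP arrays in a model of tissue and Ndp genotype. P-values were two-sided and adjusted by Benjamini-Hochberg over all probes, and an adjusted p below 0.05 was called. The fit was tested on simulated data. Values per array are given for genes called in any comparison, for those whose NdpKO;Ptch+/- and Ptch+/- arrays did not overlap, and for the highest gene and the gene with the largest NdpKO;Ptch+/- difference of each class. Alternatives comprised a filter on dim probes, trend and robust moderation, array weights, fits of 2 groups, a replicate block, the other grouping of the array with disagreeing labels, a floor of 5, other probe choices and leaving out each array. The endothelial covariate and the set of genes in it were added after the data were seen. The members and lists were chosen with earlier results of these data known.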

Additional observations from a re-analysis of the deposited data

Results flagged for a closer look

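Single arrays stood far from the rest of their group in 7 of 76 groups of 4 arrays of the measured genes, where chance gives about 1 in 20 groups. The groups share the same 16 GNP arrays and are not independent, so this rate cannot show an excess. In NdpKO;Ptch+/- GNPs, Sox18 was measured at 7.54 on replicate 1, against 9.96 to 10.26 on the other 3. In NdpKO GNPs, Sox18 was measured at 9.96 on replicate 4, against 7.13 to 7.26 on the other 3, and Nostrin at 5.22 on the same array, against 4.24 to 4.36. These are the arrays that stood apart over the 1500 variable probes. Of those probes 13 belonged to the genes listed here, so the match is no separate observation. In WT GNPs, replicate 1 was the highest array for Sox18 at 9.37, against 8.71 to 8.81, for Egfl7 at 11.91, against 10.98 to 11.10, and for Mfsd2a at 9.98, against 9.13 to 9.23. In Ptch+/- GNPs, Aplnr was measured at 5.73 on replicate 2, against 6.94 to 7.13 on the other 3.

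For Egfl7 the differences with Norrin genotype had opposite signs, and neither passed the threshold. Every NdpKO;Ptch+/- array lay above the Ptch+/- mean, with a difference of 0.70, and every NdpKO array below the WT mean, with a difference of -0.80. The interaction was 1.5 and did not pass the threshold (limma adjusted p = 0.0913).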

How the results depend on the processing

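Single genes kept their direction and their side of the threshold in 2047 of the values recomputed, lost their call in 62, gained one in 55 and changed sign in 43. Among summary values 308 were close to those reported and 70 were not. Leaving out 1 array at a time gave 0 to 2 genes called in NdpKO against WT, 0 to 2 in Ptch+/- against WT, 0 to 5 in the interaction (5 without NdpKO;Ptch+/- replicate 1, 4 without NdpKO replicate 4) and 0 in NdpKO;Ptch+/- against Ptch+/-. The difference of Nostrin in NdpKO;Ptch+/- against Ptch+/- then ranged between -0.11 and 0.35, and it was -0.11 without NdpKO;Ptch+/- replicate 4 and -0.06 without Ptch+/- replicate 2. Without both arrays that stood apart, which were chosen on these same data, 3 genes were called in NdpKO;Ptch+/- against Ptch+/-, 7 in NdpKO against WT, 5 in Ptch+/- against WT and 11 in the interaction, whose pan-endothelial median was 1.47. With probes of a mean of at least 5 the calls were 4 in NdpKO against WT, 4 in Ptch+/- against WT and 4 in the interaction. The barrier medians then were -0.36 in NdpKO;Ptch+/- against Ptch+/-, -0.60 in NdpKO against WT, -0.41 in Ptch+/- against WT, 0.77 in the interaction and -2.12 in the tumours, and the pan-endothelial ones 1.63 in the interaction and -1.77 in the tumours, since genes at background leave the median. With values below 5 set to 5 the calls were 4 in NdpKO against WT, 2 in Ptch+/- against WT and 3 in the interaction, with barrier medians of -0.18, -0.53, -0.36, 0.50 and -1.07 in the same 5 comparisons and a pan-endothelial median of -1.04 in the tumours. Trend and robust moderation called 2 genes in Ptch+/- against WT and 3 in the interaction, and array weights 2 and 1. Fits of 2 groups called 0 in NdpKO against WT and 2 in Ptch+/- against WT. Counting the array with disagreeing labels as NdpKO left 0 called in NdpKO against WT. With the mean over the probes of a gene the pan-endothelial median of the interaction was 0.57. The replicate numbers did not pair the arrays (median correlation of deviations -0.04 over 24 pairs of the same number, 4 of 16 arrays closest to their own number), and a replicate block left 0 called in NdpKO against WT and 0 in Ptch+/- against WT.

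The endothelial covariate, chosen after the data were seen, left 0 genes called in NdpKO against WT and 0 in Ptch+/- against WT, with pan-endothelial medians of 0.017, 0.013 and -0.00888 and barrier medians of -0.0043, 0.0057 and -0.013 in NdpKO against WT, Ptch+/- against WT and the interaction. These medians run over 26 pan-endothelial genes, among them the 4 covariate genes, and over 8 barrier genes. Genes at background are included, so values near 0 were partly built in. Under the covariate, in NdpKO;Ptch+/- against Ptch+/-, Flt1 turned to -0.20, Aplnr to -0.30, Eng to -0.39, Vcam1 to -0.035, Ly6c1 to -0.054, Nostrin to -0.37 and Slc2a1 to -0.041. In NdpKO against WT, Flt1 turned to 0.075, Tek to 0.033, Aplnr to 4.7e-05, Eng to 0.18, Sox7 to 0.043, Sox18 to 0.24, Cdh5 to 0.54, Ly6c1 to 0.55, Itm2a to 0.26 and Slc2a1 to 0.055. In Ptch+/- against WT, Flt1 turned to 0.13, Tek to 0.50, Aplnr to 0.49, Eng to 0.22, Sox7 to 0.044, Sox18 to 0.0070, Cdh5 to 0.53, Ly6c1 to 0.036, Vwf to 0.18, Itm2a to 0.22, Slc2a1 to 0.13, Slco1c1 to 0.032 and Mfsd2a to 0.21. In the interaction, Flt1 turned to -0.27, Tek to -0.0063, Aplnr to -0.30, Eng to -0.57, Cdh5 to -0.34, Ly6c1 to -0.60, Vwf to -0.71, Itm2a to -0.22, Slc2a1 to -0.096, Slco1c1 to -0.55 and Mfsd2a to -0.59. The cause was not tested. The tumour results rest on 2 arrays, and probes at background give no measure of the genes they stand for.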

Other observations

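Second probes gave another view of 3 of the genes. For Sox7 a further probe (ILMN_2653251) had differences of 1.69 in NdpKO;Ptch+/- against Ptch+/-, -1.97 in NdpKO against WT, -2.11 in Ptch+/- against WT and -2.01 in the tumours, with the signs of the probe used. For Egfl7 a further probe (ILMN_1215919) had differences of 0.94, -1.02, -1.29 and -3.02 in these comparisons, again with the same signs. For Cdh5 a further probe (ILMN_2866951), with a mean below 5, had differences of 0.99, -0.19, -0.57 and -0.61. All other further probes of the listed genes lay below 5 on every array and gave no measure. Those of Vcam1 (ILMN_1232768, ILMN_1241993 and ILMN_2552295) reached at most 4.12, 4.14 and 4.12. That of Nostrin (ILMN_2821676) reached at most 4.32. The calls of Vcam1 and Nostrin between GNP genotypes therefore each rest on a single probe.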
